A study of Homo sapiens with 15 samples.

Results

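The comparison set cells that overexpressed the RNA-binding protein ZC3H7A directly against cells that overexpressed its paralog ZC3H7B. Its members were all genes with a normalized count of at least 10 in 3 or more of the 6 libraries concerned, which held for 16922 of the 55773 genes of the table. HEK293 is an established human embryonic kidney line, and the cells used here were of its Flp-In T-REx 293 derivative, in which a doxycycline-inducible transgene is placed at a fixed genomic site. One group of 3 libraries expressed Flag/HA-ZC3H7A and the other group of 3 expressed Flag/HA-ZC3H7B, both after 24 h of doxycycline at 1 µg/mL. A group of 3 libraries of cells with the Flag/HA tag alone, also labelled as doxycycline-treated but with no dose or time stated for them, is given beside them as a level of reference. Per the labels the 3 replicates of a group were independent, and poly(A) RNA was taken from a hypotonic detergent lysate made for the isolation of polysomes. The sources used here do not say whether a transgene was carried by a single line or by several, so the protein expressed and the line that carried it cannot be told apart. The p-values measure the spread between replicates of a group.

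ZC3H7A and ZC3H7B are CCCH zinc-finger proteins with tetratricopeptide repeats, and both bind RNA. The title of the series names codon-dependent control of translation and of mRNA stability by the pair. Codons that encode an amino acid often differ in the third base alone, and transcripts rich in codons that end in A or T (A or U in the mRNA) are known to differ in stability from those rich in codons that end in G or C. The direct comparison asks where the effects of the paralogs differ.

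The coding sequences of the paralogs themselves differed in codon use, and their first 30 codons are shown because codon content returns as a measure further on. Capitals mark the third bases of codons that end in A or T. The sequences are of GENCODE 29 transcripts on GRCh38, spliced from 2 exon stretches within chr16:11781443-11782354 on the minus strand for ZC3H7A and from 3 within chr22:41320661-41325723 on the plus strand for ZC3H7B.
ZC3H7A: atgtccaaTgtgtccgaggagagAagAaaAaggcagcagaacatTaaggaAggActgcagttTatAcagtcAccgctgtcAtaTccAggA
ZC3H7B: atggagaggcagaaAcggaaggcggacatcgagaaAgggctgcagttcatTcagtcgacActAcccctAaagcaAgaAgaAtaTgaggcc
Of these codons 14 in ZC3H7A and 10 in ZC3H7B ended in A or T. Over the whole coding sequence the share was 64.2% of 971 codons in ZC3H7A and 19.0% of 977 codons in ZC3H7B.

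Library totals were 45.5 to 53.2 M reads with ZC3H7A, 52.5 to 57.6 M with ZC3H7B and 46.5 to 57.3 M in the control. The spread within a group, as the biological coefficient of variation, was 8.91% with ZC3H7A, 4.34% with ZC3H7B and 2.03% in the control. ZC3H7A replicate 3 differed most from its group, with a chi-square per degree of freedom of 25.9 and 34.0 against the other 2 libraries, which differed by 5.34 from each other. Markers of HEK293 cells were present, 15 of 16 passing the filter on low values, with PAX8, which did not pass, at 2.29 or less in all 9 libraries. Of markers of other cell types, 3 of 10 for fibroblasts, 1 of 10 for keratinized epithelium, 2 of 10 for leukocytes and 3 of 9 for endothelium passed it. The defining PTPRC, CD3E, CDH5, KRT5 and KRT14 were at 2.15 or less in every library. Among those that passed, SFN was at 35.9 to 50.0 with ZC3H7A and 105 to 106.3 with ZC3H7B, and PDGFRA was at 69.3 to 77.6 with ZC3H7A and 35.9 to 50.5 with ZC3H7B. Their part in the results was not tested.

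The transgenes were checked first. ZC3H7A was at 10546, 10131 and 12898 in the ZC3H7A libraries, at 1935, 2049 and 2113 in the ZC3H7B libraries and at 3179.6, 3374 and 3223 in the control. ZC3H7B was at 8252, 8288 and 7389.8 in the ZC3H7A libraries, at 28082, 26712 and 26632 in the ZC3H7B libraries and at 5951, 5818 and 6044 in the control. Each transgene was thus highest in the libraries labelled with it, and no groups overlapped. Against the control, ZC3H7A rose by 1.77 (log2) where it was expressed and differed by -0.68 with ZC3H7B, and ZC3H7B rose by 2.19 where it was expressed and by 0.42 with ZC3H7A. These reads cannot separate the transgene from the gene's own transcript.

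In all, 6569 of the 16922 genes (38.8%) differed between the paralogs at an adjusted p under 0.05 (limma, two-sided, Benjamini-Hochberg). Of these, 3621 were higher with ZC3H7A, which is 21.4% of the genes tested, and 2948 were higher with ZC3H7B, which is 17.4%. Most differences were small. The median size among called genes was 0.40 on the log2 scale, and 71.5% of them differed by less than 1.5-fold. A difference of at least 2-fold was called for 301 genes higher with ZC3H7A (1.78%) and 234 higher with ZC3H7B (1.38%). The libraries of the groups did not overlap for 8520 genes (50.3%). In the fit that also held the control libraries, 12899 of the same genes (76.2%) were called between ZC3H7A and control and 11873 (70.2%) between ZC3H7B and control. That fit called 7755 genes between the paralogs. Its variances are shared with the control, whose spread was the smallest, so its shares are not on the measure of the 38.8%. Below, a positive log2 difference is higher with ZC3H7A and a negative one is higher with ZC3H7B, on the scale of log2(normalized count + 1).

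**Figure D1:**
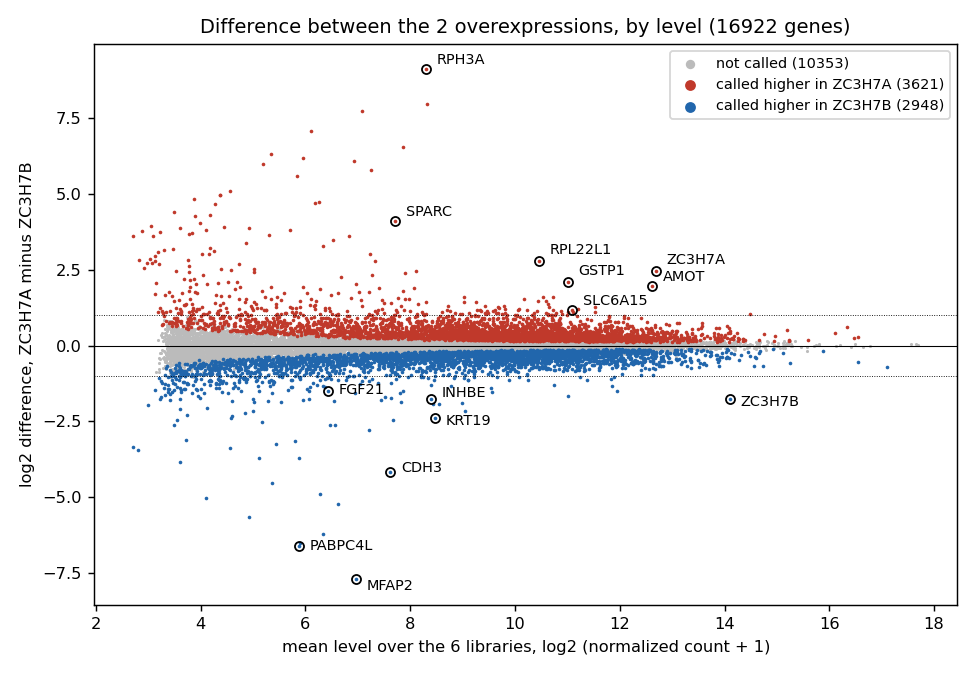
Log2 difference between ZC3H7A and ZC3H7B (vertical axis) against the mean level over the 6 libraries (horizontal axis, log2 of the normalized count plus 1) for 16922 genes, one point each. Red points are the 3621 genes called higher with ZC3H7A, blue points the 2948 called higher with ZC3H7B, and dotted lines mark a 2-fold difference; AMOT, GSTP1 and RPL22L1 stand out among abundant genes, at differences of 1.95, 2.08 and 2.79.

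Most of the largest differences were of genes that were nearly silent in one group. RPH3A, which encodes rabphilin-3A of synaptic vesicles, was at 634, 614 and 638 with ZC3H7A, at 0.489, 0 and 0 with ZC3H7B and at 0, 0 and 1.06 in the control. IFI16, a sensor of DNA, was at 441, 399 and 542 with ZC3H7A, at 3.43, 4.83 and 3.64 with ZC3H7B and at 3.23, 4.58 and 1.59 in the control. In both genes the ZC3H7B libraries lay with the control and the ZC3H7A libraries apart from both. In wild-type cells of the series, sequenced by another library protocol, RPH3A was at 182, 222 and 231 and IFI16 at 6.66, 7.40 and 6.54. The near silence of RPH3A in the control was thus not shared by the wild-type cells. The ratio of reads was 116-fold for IFI16 (95% interval 77.4 to 184, which covers counting error only). No read of THNSL2, a threonine synthase-like gene, was counted with ZC3H7B or in the control, against 133, 163 and 112 normalized counts with ZC3H7A, so that it was at least 266-fold higher with ZC3H7A when the floor is set at 3 reads in the whole group. Among the 12 largest differences in this direction were also ZNF22, HTRA3, ZNF43, CYB561, CD7, GHR (growth hormone receptor), GSTM2 (a glutathione transferase) and SPARC (a matrix glycoprotein), with log2 differences of 4.09 to 7.73. In 10 of the 12 the control was nearer to ZC3H7B than to ZC3H7A on the log2 scale. The exceptions were GSTM2 and ZNF43. ZNF43, a zinc-finger gene in a shifted stretch of chromosome 19 described below, was at 214, 192 and 309 with ZC3H7A, 2.94, 1.61 and 3.12 with ZC3H7B and 275, 239.8 and 276 in the control.

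In the other direction the 12 largest differences were also mostly of genes that were closer to the control with ZC3H7B and low with ZC3H7A. MFAP2, a microfibril protein gene on chromosome 1, was at 246, 258 and 237 with ZC3H7B and at 321, 309 and 347 in the control, and 1 read was counted over the 3 ZC3H7A libraries. CDH3, which encodes P-cadherin, was at 391, 370.0 and 355 with ZC3H7B, 444, 409 and 408 in the control and 18.0, 24.6 and 17.8 with ZC3H7A, a log2 difference of -4.16. KRT19, an epithelial keratin gene, was at 603, 609.5 and 573 with ZC3H7B, 575, 582 and 579 in the control and 129.6, 105 and 108 with ZC3H7A, a difference of -2.38. All 3 showed no overlap between the overexpression groups. KRT8, a partner of simple epithelial keratins, was lower with ZC3H7A as well (-0.78 ± 0.08 SE). KRT18, another keratin gene, did not follow. It was at 1240, 1094 and 1015 with ZC3H7A, 1057, 1064 and 978 with ZC3H7B and 736, 733 and 757 in the control. SYTL5, APOBEC3B (a cytidine deaminase) and the non-coding RNA LINC00958 were, like CDH3 and KRT19, lower with ZC3H7A than with ZC3H7B or in the control. Their differences were -2.17, -2.61 and -4.91. The control was nearer to ZC3H7B in 10 of the 12. The exceptions were ERVMER34-1, an endogenous retroviral envelope gene, and TNK1, a kinase gene, which were raised with ZC3H7B. ERVMER34-1 was at 159, 161 and 153 with ZC3H7B against 4.15, 4.01 and 3.70 in the control and 0.641, 1.61 and 1.18 with ZC3H7A.

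**Figure D2:**
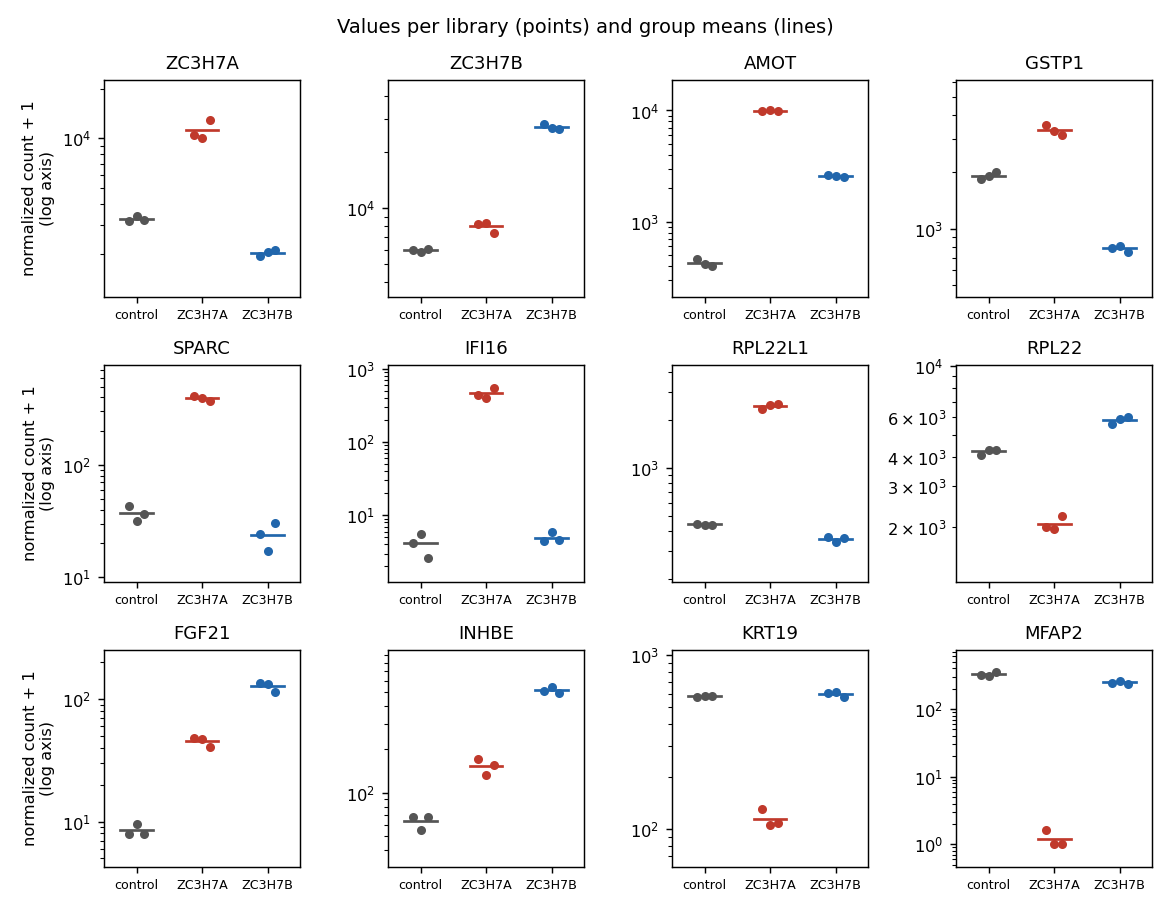
Normalized count plus 1 (log axis) of 12 genes in the 3 control, 3 ZC3H7A and 3 ZC3H7B libraries, one point per library, with lines at the group means. MFAP2 and KRT19 were low with ZC3H7A alone, SPARC and IFI16 were high with ZC3H7A alone, and GSTP1 lay on opposite sides of the control.

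Some genes lay above the control with one paralog and below it with the other, with no overlap among the 9 libraries. GSTP1, the pi-class glutathione transferase, was the most abundant of them. It was at 3570.1, 3278 and 3129 with ZC3H7A, at 1834, 1899.8 and 1990.2 in the control and at 792, 804 and 752 with ZC3H7B, a difference between the paralogs of 2.08 ± 0.06 (SE; limma adjusted p = 7.25e-08). The 3 groups formed 3 separate levels, 0.80 above and -1.28 from the control on the log2 scale. GSTM2, GHR, SSH3 (a cofilin phosphatase), EHBP1L1 and SYT12 were ordered the same way, with differences of 1.87 to 4.72 between the paralogs. GSTP1, SSH3, EHBP1L1 and SYT12 all lie on chromosome 11. The runs of about 15 neighbouring genes that hold GSTP1, SSH3 and EHBP1L1 had median differences of 0.10, 0.13 and 0.16, far below those of the 3 genes. In the opposite order, MYD88, the adaptor of Toll-like receptors, was at 595, 581 and 598 with ZC3H7B, 294, 309 and 278 in the control and 165, 150.4 and 146 with ZC3H7A. PABPC4L, a poly(A)-binding protein-like gene, was at 123, 96.1 and 127 with ZC3H7B and 33.7, 33.2 and 36.5 in the control, and 1 read was counted with ZC3H7A. LINC00839, TNK1, ERVMER34-1 and ALS2CR11 completed this set.

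Among abundant genes with at least a 2-fold difference, AMOT stood out. AMOT encodes angiomotin, a scaffold at cell junctions that binds the coactivator YAP in the Hippo pathway. It was at 9909, 10051 and 9911 with ZC3H7A, 2626, 2566 and 2518 with ZC3H7B and 458, 419 and 399 in the control. Both overexpressions were above the control, by 4.55 and 2.59 (log2), and ZC3H7A was above ZC3H7B by 1.95 ± 0.04 (SE). The wild-type cells of the series had AMOT at 3465.9, 4400.5 and 5875.5, above the control and the ZC3H7B libraries and below the ZC3H7A libraries. The low level in the control was thus not shared by the wild-type cells. Of the 22 tested angiomotin and Hippo-YAP genes, 3 were called higher with ZC3H7A (13.6%, beside 21.4% over all genes). A further 7 were called higher with ZC3H7B (31.8%, beside 17.4%), and the list median was 0.0038. These counts moved widely, to 3 and 3 without ZC3H7A replicate 1 or ZC3H7B replicate 1, to 4 and 1 without ZC3H7A replicate 2, to 3 and 1 without ZC3H7B replicate 2 or 3, to 6 and 8 without ZC3H7A replicate 3, and to 8 and 10 with the trend on codon content removed. WWTR1, which encodes the coactivator TAZ, was at 1394, 1229 and 1486 with ZC3H7A and at 682, 699 and 663 with ZC3H7B, against 1540.2 to 1591 in the control. Both groups were below the control, ZC3H7B the further. SAT1 (spermidine acetyltransferase), GNG12 (a G-protein subunit), LMAN1 (a cargo receptor of the secretory pathway) and SLC6A15 were also over 2-fold higher with ZC3H7A, with differences of 1.05 to 1.27. GNG12 and LMAN1 were below the control with both paralogs and lower with ZC3H7B, at -1.60 and -1.86, than with ZC3H7A, at -0.33 and -0.77.

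The integrated stress response is a program in which the transcription factor ATF4 raises genes of amino acid supply and stress adaptation. Its 35 tested genes divided. Of them 11 were called higher with ZC3H7A (31.4%) and 10 higher with ZC3H7B (28.6%), with a median of 0.07. Over all genes these shares were 21.4% and 17.4%. The largest differences were of secreted stress hormones. INHBE, an inhibin subunit, was at 511, 546 and 489 with ZC3H7B, 172, 132 and 155 with ZC3H7A and 66.4, 53.8 and 67.2 in the control. FGF21, a metabolic hormone, was at 136, 132 and 113 with ZC3H7B, 47.5, 46.0 and 39.7 with ZC3H7A and 6.92, 8.59 and 6.88 in the control. Both genes were above the control with either paralog, and higher with ZC3H7B than with ZC3H7A, with differences of -1.75 and -1.49 (limma adjusted p = 3.35e-06 and 1.86e-05). NUPR1, CTH, ATF3, PPP1R15A and DDIT3 were called in the same direction, and so was SESN2, which lies in a shifted stretch of chromosome 1 described below. ATF4 itself was higher with ZC3H7A by 0.19 ± 0.04 (SE), as were the amino acid transporter gene SLC7A5 by 0.42 and DDIT4, an inhibitor of mTORC1, by 0.43. These members beyond the 3 with the lowest p were named after their values were seen. Without ZC3H7B replicate 3 the calls in the list were 6 and 9.

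The promoter stretch of FGF21 is shown because FGF21 and INHBE departed from ATF4. Capitals mark TTGCATCA, a form of the C/EBP-ATF response element, 54 bases before the annotated start. The stretch is chr19:48755440-48755507 on GRCh38.p14, plus strand, from RefSeq.
FGF21: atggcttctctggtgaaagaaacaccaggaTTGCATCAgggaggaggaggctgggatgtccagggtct
The motif, searched on both strands in the 250 bases before each start, was in 0.772% of 35116 promoter entries. A gene can have several entries and was counted if any of them matched, so a count of genes is not on the measure of this share. Of the 27 stress response genes with a promoter entry it was in 5, CEBPG, CHAC1, FGF21, HERPUD1 and JDP2. These did not share a direction: FGF21 was higher with ZC3H7B, HERPUD1 and JDP2 were higher with ZC3H7A by 0.38 and 0.32, and CHAC1 and CEBPG were at -0.15 and -0.13 without a call. A match is a match of letters and is not evidence of binding.

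Cholesterol synthesis genes, the targets of the SREBP2 factor, were the list most often called higher with ZC3H7A. Of 23 tested members 15 were called higher with ZC3H7A (65.2%) and 1 higher with ZC3H7B, with a median of 0.24, beside 21.4%, 17.4% and a median of 0.01 over all genes. SQLE, which makes squalene epoxide, was at 4893, 4484 and 4752 with ZC3H7A, 3288, 3349 and 3153 with ZC3H7B and 3707, 3719 and 3629 in the control. MSMO1, a sterol demethylation enzyme, was at 1434, 1240.0 and 1491 with ZC3H7A, 884, 927 and 847 with ZC3H7B and 1523, 1525 and 1513 in the control. The paralog groups did not overlap in either gene. For SQLE they lay on either side of the control, and for MSMO1 both lay below it. The member called in the other direction was MVK at -0.46, which lies in the shifted stretch of chromosome 12 described below. Outside the shifted stretches 14 of 20 were called higher with ZC3H7A and 0 higher with ZC3H7B.

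Genes of the endoplasmic reticulum's chaperones and unfolded protein response took the same side. Of 22 tested, 11 were called higher with ZC3H7A (50.0%) and 1 higher with ZC3H7B, with a median of 0.14. Over all genes 21.4% and 17.4% were so called. The differences were small. HERPUD1, of ER-associated degradation, was at 2233, 2233 and 2066 against 1741, 1627 and 1648. The disulfide isomerase genes PDIA3 and PDIA6 differed by 0.29 and 0.26. HSPA5, which encodes the chaperone BiP, was at 11154, 12422 and 10159 with ZC3H7A and at 9074, 9251 and 9408 with ZC3H7B. HSP90B1, the exception at -0.38, lies in the shifted stretch of chromosome 12 and was below the control with both paralogs. The calls higher with ZC3H7A were 7 without ZC3H7B replicate 2 or replicate 3.

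Of 27 amino-acid transporter genes 11 were called higher with ZC3H7A (40.7%) and 1, SLC38A7, higher with ZC3H7B, with a median of 0.17. Over all genes these shares were 21.4% and 17.4%. SLC6A15, a carrier of neutral amino acids, was at 2991, 2618 and 3446 with ZC3H7A and at 1269, 1372 and 1385 with ZC3H7B, against 2370.2 to 2499.7 in the control. SLC1A1, a glutamate carrier, was at 988, 952 and 927 against 579, 582 and 590.0. SLC7A2, a carrier of cationic amino acids, was at 4013, 3908 and 4460.3 against 2609, 2681 and 2665. In these 3 genes the ZC3H7A libraries were above the control libraries and the ZC3H7B libraries below them. None of the 27 lies in a shifted stretch.

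Genes of the G1/S transition and DNA replication were higher with ZC3H7B. Of 40 tested, 23 were called higher with ZC3H7B (57.5%) and 1, CCNE1, higher with ZC3H7A, with a median of -0.18. Over all genes 17.4% and 21.4% were so called. RPA2, a subunit of the single-strand DNA binding complex, was at 5408, 5312 and 5178 with ZC3H7B, 2144, 2123 and 2040.1 with ZC3H7A and 3087, 3224 and 3304 in the control. UNG (uracil DNA glycosylase) and CHAF1A (a chromatin assembly subunit) differed by -0.62 and -0.56. These 3 had the lowest p of the list, and all 3 lie in shifted stretches, where the runs of about 40 genes that hold them had medians of -0.58, -0.62 and -0.42. Outside the shifted stretches 18 of 34 were called higher with ZC3H7B (52.9%) and 0 higher with ZC3H7A. RRM2 and ORC6 are examples, named after their values were seen, and outside those stretches. RRM2, a ribonucleotide reductase subunit, was at 6915, 7055 and 6794 with ZC3H7B against 5814, 5655 and 5596 with ZC3H7A, and ORC6 of the origin recognition complex was at 3622, 3656 and 3812 against 2752, 2782 and 2928. RRM2 was raised over the control level of 5576 to 5829 with ZC3H7B, and ORC6 was below the control level of 3500.3 to 3550.0 with ZC3H7A. Of 35 genes of mitosis and G2/M, 5 were called higher with ZC3H7A and 11 higher with ZC3H7B (31.4%), with a median of -0.10. Over the alternatives, leaving out each library included, these G2/M counts ran from 0 to 7 and from 4 to 17, the lowest being 0 and 8 without ZC3H7A replicate 1, 1 and 4 without ZC3H7B replicate 2 and 0 and 7 without ZC3H7B replicate 3, and the highest 7 and 17 without ZC3H7A replicate 3.

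The promoter stretch of ORC6 is shown as an example of the E2F element that many G1/S genes carry. Capitals mark the match to TTTNNCGC, here on the reverse strand, 123 bases before the start, in chr16:46689506-46689573 of GRCh38.p14, plus strand, from RefSeq.
ORC6: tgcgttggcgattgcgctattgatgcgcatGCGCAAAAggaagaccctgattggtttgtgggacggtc
This motif was in 16 of the 34 list members with a promoter entry, and in 5.92% of all 35116 promoter entries, again in 250 bases and on both strands. As before, a member was counted if any of its entries matched, so the count and the share are unlike measures.

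Of 25 tested p53 target genes 12 were called higher with ZC3H7B (48.0%) and 3 higher with ZC3H7A (12%), with a median of -0.15. Over all genes these shares were 17.4% and 21.4%. GADD45A, a growth arrest gene, was at 1540.0, 1638 and 1557 with ZC3H7B and at 1161, 1136 and 1143 with ZC3H7A, against 1330.2 to 1426 in the control. SESN1 and FDXR differed by -0.48 and -0.55. CDKN1A, the p21 inhibitor of cyclin-dependent kinases, was at 2365, 2279 and 2258 with ZC3H7B and 2017, 1959 and 1689.5 with ZC3H7A, and both were below the control level of 4217 to 4457. RRM2B, another p53 target, was called in the other direction, at 0.48. The calls higher with ZC3H7B were 7 without ZC3H7A replicate 1, 6 without ZC3H7B replicate 2 and 7 without ZC3H7B replicate 3. Of the cytosolic tRNA synthetases, which load amino acids onto tRNAs, 8 of 20 genes were called higher with ZC3H7B and 0 called higher with ZC3H7A. These were 40% and 0%, beside 17.4% and 21.4% over all genes, and the list median was -0.13. FARSB, the beta subunit of the phenylalanine enzyme, was at 3924, 4021 and 3781 with ZC3H7B, 2328, 2228 and 2405 with ZC3H7A and 3584, 3693 and 3734 in the control. TARS and DARS differed by -0.39 and -0.44. Without ZC3H7A replicate 3 the calls were 3 higher with ZC3H7A and 11 higher with ZC3H7B.

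Host genes of small nucleolar RNAs carry guides for rRNA modification in their introns. Of 16 tested, 9 were called higher with ZC3H7B (56.2%) and 1 higher with ZC3H7A, with a median of -0.22. Over all genes 17.4% and 21.4% were so called. SNHG12 and SNHG3 led, at -0.94 and -0.80, and both lie in the shifted stretch of chromosome 1. ZFAS1 on chromosome 20 was at 2472, 2429.5 and 2551 with ZC3H7B and 1945, 2040.3 and 2049 with ZC3H7A. Outside the shifted stretches the calls were 7 and 1 of 14. The 23 replication-dependent histone genes tested lack poly(A) tails and are thus poorly sampled by this library type. Of them 8 were called higher with ZC3H7B (34.8%) and 0 higher with ZC3H7A, beside 17.4% and 21.4% over all genes. The calls higher with ZC3H7B were 4 without ZC3H7B replicate 2 and 5 without ZC3H7B replicate 3. HIST1H2AG was at 101, 113 and 123 with ZC3H7B, 60.3, 69.1 and 49.7 with ZC3H7A and 334 to 341 in the control.

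**Figure D3:**
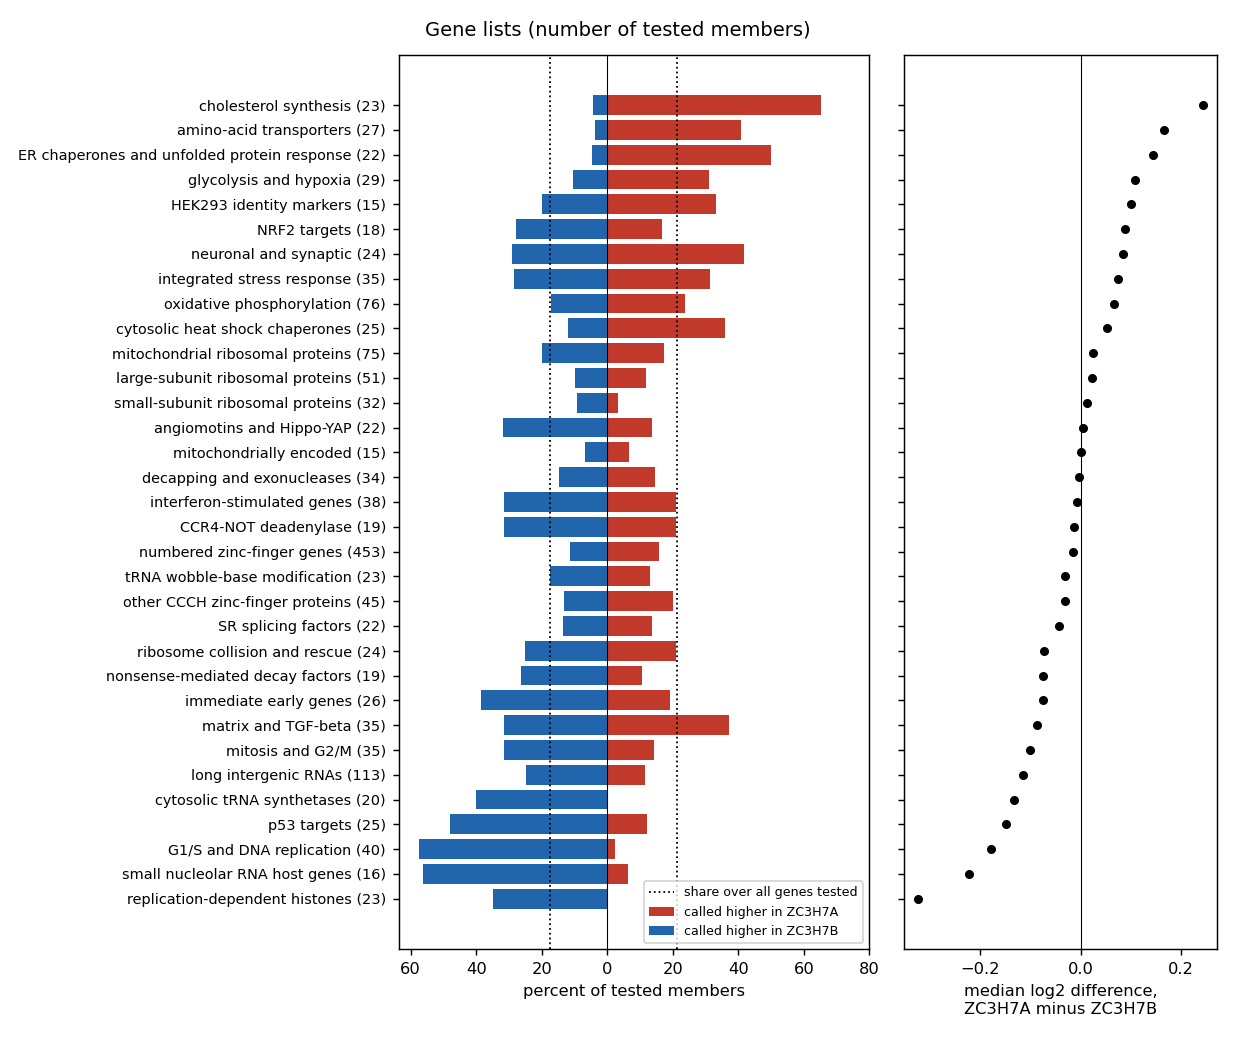
Left, percent of the tested members of each gene list called higher with ZC3H7A (red, to the right) and with ZC3H7B (blue, to the left), with dotted lines at the shares over all genes tested (21.4% and 17.4%). Right, the median log2 difference of the same members; numbers in parentheses are tested members, and lists run from cholesterol synthesis at 0.24 to replication-dependent histones at -0.32.

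Genes of mRNA decay and translational repression, the machinery that CCCH proteins are known to engage, had medians near 0 in the direct comparison. Of 19 CCR4-NOT deadenylase genes 4 were called higher with ZC3H7A (21.1%) and 6 higher with ZC3H7B (31.6%), with a median of -0.01. Of 34 decapping and exonuclease genes these were 5 (14.7%) and 5 (14.7%), with a median of -0.003. The shares over all genes were 21.4% and 17.4%. Without 1 library the decapping counts ran from 1 and 4 (without ZC3H7B replicate 2) to 7 and 9 (without ZC3H7A replicate 3). Of 13 GIGYF and 4EHP repressor genes 3 (23.1%) and 2 (15.4%) were called, with a median of 0.0036. With the trend on codon content removed these were 3 and 7, with a median of -0.12, and without ZC3H7A replicate 2, ZC3H7B replicate 2 or ZC3H7B replicate 3 they were 1 and 2. The cap-binding repressor gene EIF4E2 and its partner GIGYF2 differed by -0.49 and -0.58, and both lie in the shifted stretch of chromosome 2, whose runs had medians of -0.45 and -0.49. AGO2, which encodes the slicing Argonaute, differed by 0.64 in a stretch of chromosome 8 with run medians of 0.62 and 0.71. BTG1, an activator of deadenylation, differed by -0.82. Its run of about 40 genes on chromosome 12 had a median of -0.58, and its run of about 15 had one of -0.096. The shorter run crosses the edge of the stretch. It also holds SLC6A15, whose run of about 40 lies outside the stretch with a median of -0.078. CNOT10, a CCR4-NOT subunit of chromosome 3 outside any shifted stretch, was at 1335, 1322 and 1377 with ZC3H7A, 1828, 1891 and 1829 with ZC3H7B and 1752 to 1831 in the control. UPF3B, an exon junction partner in nonsense-mediated decay, was at 1119, 1071 and 1414 with ZC3H7A and 1883, 2073 and 2169.9 with ZC3H7B, and both were below the control level of 2755 to 2932.

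Of 51 cytosolic ribosomal protein genes of the large subunit, 6 were called higher with ZC3H7A (11.8%) and 5 higher with ZC3H7B (9.8%). Of 32 for the small subunit these were 1 (3.1%) and 3 (9.4%). All 4 shares were below those over all genes, 21.4% and 17.4%. Without ZC3H7A replicate 3 these counts were 14 and 8, and 6 and 5. RPL22L1 and its paralog RPL22 had the most positive and the most negative difference of the 51. RPL22L1 was at 2356, 2499 and 2524 with ZC3H7A, 367, 338 and 358 with ZC3H7B and 435 to 444 in the control. RPL22 was at 1999, 1947 and 2228 with ZC3H7A, 5598, 5869.7 and 5972 with ZC3H7B and 4115 to 4315 in the control. The pair moved in opposite directions, by 2.79 and -1.50, and RPL22 lies in a run of chromosome 1 with a median of -0.47.

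Called genes were not spread evenly along the chromosomes. The 11696 placed genes whose mean reached 100 were put in order and grouped into 292 runs of about 40 neighbours. With the trend on codon content removed, 24 runs had a median difference beyond 0.2 in size. The smallest of these was at 0.251 and the largest of the others at 0.144. They joined into 8 stretches. With ZC3H7B higher, these were the start of chromosome 1 from MTND2P28 to GMEB1 (242 genes, median difference -0.52), the end of chromosome 2 from ACSL3 to D2HGDH (79 genes, -0.47), chromosome 12 from CEP290 to RPL6 (119 genes, -0.58), chromosome 19 from MIER2 to NRTN (118 genes, -0.42) and all runs of chromosome 21 (115 genes, -0.32). With ZC3H7A higher, they were the end of chromosome 6 from TIAM2 to PDCD2 (40 genes, 0.27), the end of chromosome 8 from TRIB1 to C8orf33 (82 genes, 0.66) and chromosome 19 from ZNF431 to ADCK4 (157 genes, 0.39).

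Within a stretch the shift was shared by most genes. In the stretch of chromosome 1, 207 of 242 genes were called higher with ZC3H7B and 6 higher with ZC3H7A. In that of chromosome 8, 72 of 82 genes were called higher with ZC3H7A and 2 higher with ZC3H7B. The stretches were chosen by their difference between the same 6 libraries, so these counts and the library medians describe them and no test is given. The control lay between the paralogs on chromosomes 1, 2 and 21, nearer to ZC3H7B, and on chromosome 6, nearer to ZC3H7A. It lay above both on chromosome 12, and below both on chromosome 8 and in both stretches of chromosome 19. On chromosome 19 this was not particular to the stretches. The control libraries were at -0.56, -0.56 and -0.55 as medians over all 822 genes of that chromosome. In its unshifted run from HNRNPM to TMED1, ZC3H7A and ZC3H7B were 0.62 and 0.58 above the control. The stretches held 1181 of the 14788 genes placed (7.99%), of which 77.1% were called, against 38.1% of the genes outside them. Of the genes placed outside, 23.1% were called higher with ZC3H7A and 15.0% higher with ZC3H7B. Among genes with at least a 2-fold difference, 259 higher with ZC3H7A and 158 higher with ZC3H7B lay outside the stretches, and 25 and 40 lay inside. Abundant genes with a 2-fold difference that lie inside were RPA2, PITHD1 and RPL22 on chromosome 1, UHRF1 and MIDN on chromosome 19 and MFSD3 on chromosome 8. Shorter runs of about 15 genes, tried after the data were seen, placed 13 of 779 runs past the same limit and mostly outside the 8 stretches. Those with the largest medians were at the start of chromosome 5, at -0.82 (TERT to MIR4458HG) and -0.49 (FAM173B to GUSBP1), on chromosome 11 at 0.48 (MRPL49 to FAM89B), on chromosome 12 at -0.48 (HECTD4 to RNFT2, beside the stretch there) and on X at 0.33 (CD99L2 to IDH3G), and the other 8 lay between -0.22 and 0.27. The stretch of chromosome 5 holds MED10, KIAA0947, NSUN2, NDUFS6 and CCT5. TERT itself, the telomerase gene at one end of it, was higher with ZC3H7A by 0.99. DNA copy number was not measured.

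**Figure D4:**
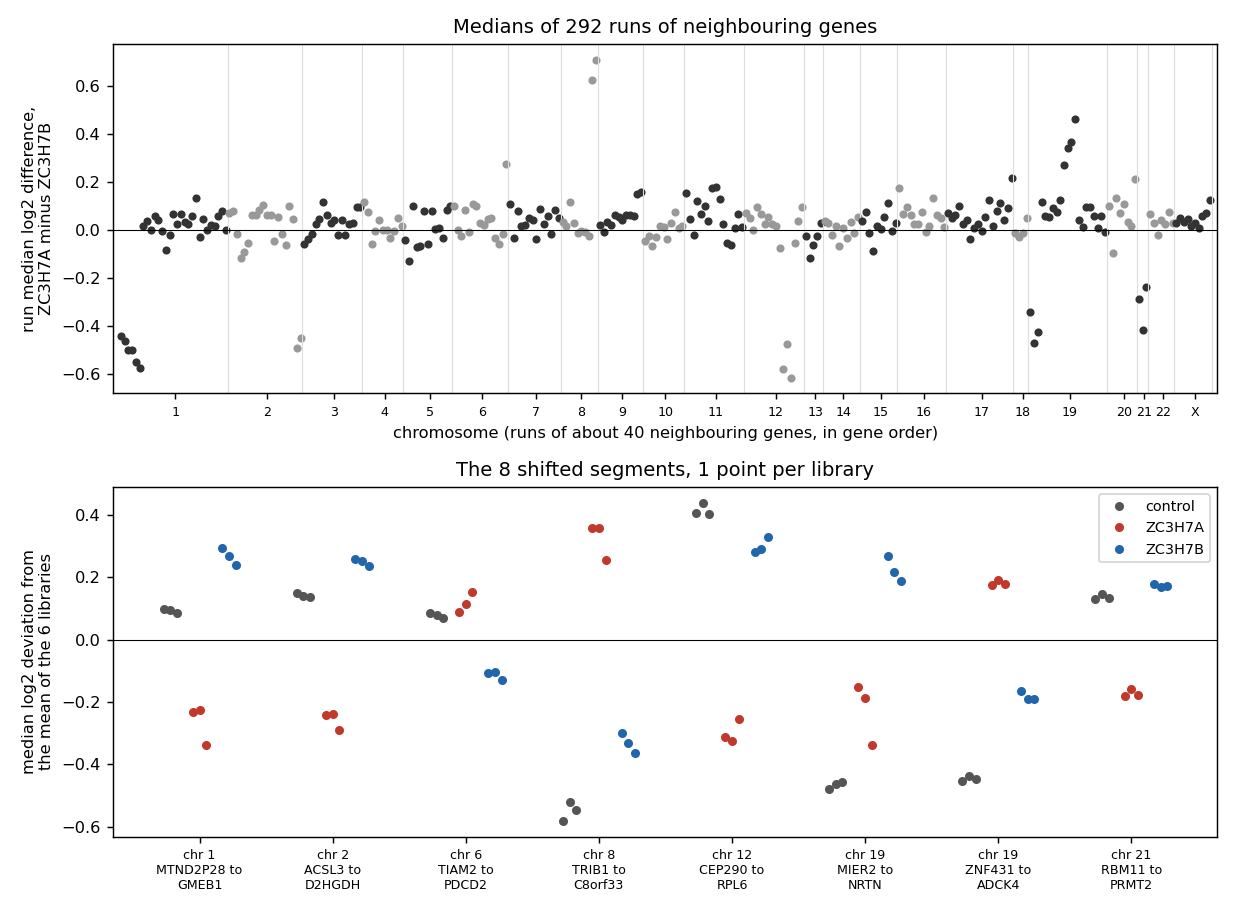
Top, median log2 difference (ZC3H7A minus ZC3H7B) of 292 runs of about 40 neighbouring genes in chromosome order, before the codon trend is removed. Bottom, for the 8 stretches that shifted together, the median log2 deviation of their genes from the mean of the 6 overexpression libraries, one point per library and less the median of all genes. The stretches were chosen by this difference. The control lies apart from both groups on chromosomes 8, 12 and 19, and on chromosome 19 it was also low as a median over all genes of the chromosome.

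Codon content was compared over 13341 coding genes, divided into 5 bins of equal size by the share of codons that end in A or T. The median difference went from 0.13 in the bin with the lowest share (up to 23.8%) through 0.08, 0.03 and -0.02 to -0.11 in the bin with the highest share (58.2% or more). In the lowest bin 39.5% of genes were called higher with ZC3H7A and 14.5% higher with ZC3H7B. In the highest bin these were 12.0% and 24.1%. These are medians and counts over genes of the mean of each group, and the libraries did not follow it alike: in the highest bin ZC3H7A replicates 1 and 2 were at -0.11 and -0.17, ZC3H7A replicate 3 was at 0.13, and the ZC3H7B libraries were at -0.027, 0.050 and 0.13.

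A score per library, the median deviation of the highest bin less that of the lowest, was -0.23, -0.28 and 0.15 in the 3 ZC3H7A libraries, 0.0053, 0.13 and 0.22 in the 3 ZC3H7B libraries and 0.85, 0.85 and 0.84 in the control. The groups overlapped through ZC3H7A replicate 3, and replicate 3 had the highest score in both groups. The difference of -0.24 did not pass an exact two-sided permutation test (p = 0.3, where 0.1 is the smallest that 3 against 3 allows). Without ZC3H7A replicate 3 it was -0.38. Both paralogs lay far below the control on this score, and further from it than from each other. Across the 13341 genes the difference and the share of A/T-ending codons had a Pearson r of -0.16, as a description across genes, which are not replicates. By single codon, r was below 0 for all 14 sense codons ending in A and all 16 ending in T, above 0 for all 16 ending in C and for 11 of 15 ending in G. It ran from -0.16 for GAA to 0.14 for GGC. The difference also had an r of -0.14 with the A+T share of the first and second codon positions and of -0.11 with that of the 3' UTR.

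**Figure D5:**
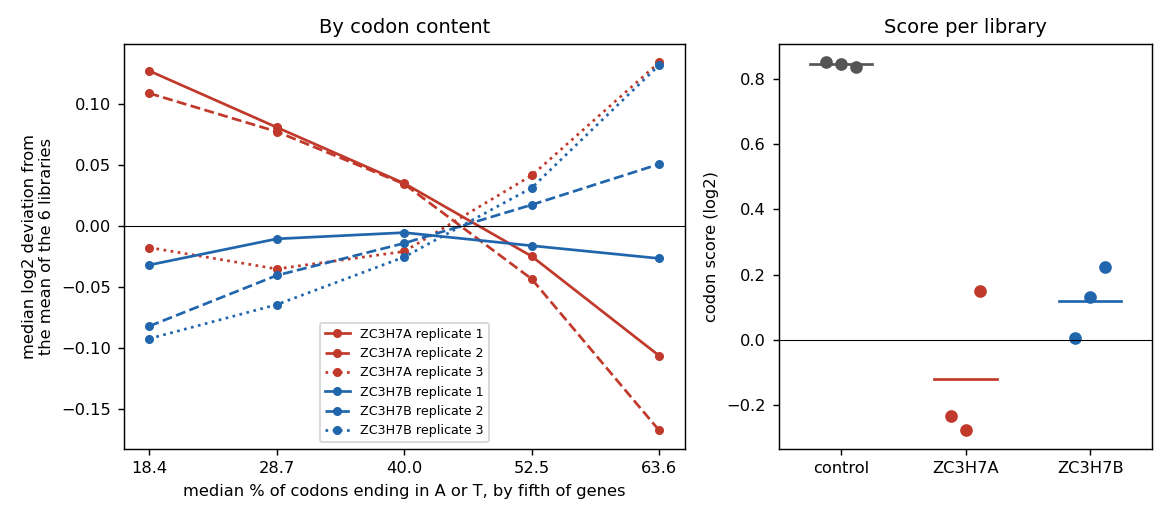
Left, median log2 deviation from the mean of the 6 libraries in each of 5 bins of 13341 coding genes, placed by the median percent of codons ending in A or T, with one line per library (red ZC3H7A, blue ZC3H7B). Right, the codon score of each library with group means as lines; ZC3H7A replicate 3, at 0.15, lies within the range of the ZC3H7B libraries, and the control lies at 0.84 to 0.85.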

How the data were processed

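RNA-seq libraries of HEK293-derived cells were used, 9 of the 15 of the series, 3 per group. The table deposited by the authors holds a signal per gene and library, read counts divided by size factors. The submitters' processing notes name STAR 2.7.10b, HTSeq, DESeq2 and hg19. Their settings and the annotation are not given in the sources used here. Whole reads could be recovered: in each library 100% of the deposited signal values were whole multiples of a single read to within 0.01 reads.

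The direct difference was estimated by limma 3.58.1 (R 4.3.3) on log2(value + 1) over the 6 overexpression libraries, with trended empirical Bayes variances and Benjamini-Hochberg adjustment over 16922 genes at 0.05. Values against the control came from a fit of all 9 libraries. On recovered reads edgeR 4.0.16 called 3488 genes higher with ZC3H7A and 3086 higher with ZC3H7B, and DESeq2 1.42.0 called 3033 and 2828. On simulated counts for 16721 genes, 50 genes were changed at each of 4 folds. There limma recovered 16% of genes changed 1.25-fold, 70% at 1.5-fold, 90% at 2-fold and 100% at 4-fold. It called 147 genes, of which 9 were unchanged. The adjusted p depends on the share of genes that change, and far more genes were called in the data. These recovery rates thus do not carry over to the data.

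Genes named were ZC3H7A and ZC3H7B, the 12 largest called differences each way (coding or long non-coding genes without overlap whose higher group averaged 100 or more), the 8 most abundant each way with a 2-fold difference, 6 each way with the control in between, and the 3 called members of lowest p in each of 40 lists. Other genes named are list members, markers, ends of stretches or examples chosen after their values were seen. The members and lists were chosen with earlier results of these data known, and no list was tested as a set. Some genes that the rule names are not reported here. Of 55773 names, 34229 matched a current and 1245 an older symbol of GENCODE 29 (GRCh38), used for chromosome, gene order and codons. Ratios for genes with 30 or fewer reads in a group are of reads, with exact binomial intervals. Alternatives were other scalings, pseudocounts, filters and tools, a 9-library fit, removal of the codon trend, a replicate block, leaving out each library and, added after seeing the data, leaving out the third library of both groups or the shifted stretches.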

Additional observations from a re-analysis of the deposited data

How the results depend on the processing

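All 142 genes named by the rule kept their direction under every alternative that tested them. Without 1 library at a time TNRC6B, LARP4 and AGO1 alone among them lost their call. Leaving out 1 library gave 2522 to 4638 genes called higher with ZC3H7A and 1982 to 4153 higher with ZC3H7B, and a codon score difference of -0.38 to -0.17. Without the third library of both groups the calls were 4482 and 3854. TMM scaling gave 3294 and 3244, and removal of the codon trend 4027 and 3924. Counts of at least 2-fold differences were 484 and 439 with no filter on low values, and 171 and 109 with a minimum of 50, where the number of genes tested differs by construction. Replicate numbers were not taken as pairs: same-numbered libraries of the groups had correlations of deviations of 0.55, 0.075 and 0.72 over 12129 genes, as a hint from the data, and ZC3H7A replicate 2 correlated best with ZC3H7B replicate 1. The fit with a replicate block called 4515 and 3953 genes.

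Some list medians changed sign, and the cause was not tested. Where the median was larger than its spread between replicates, these were the list poly(A)-binding proteins under TMM (-0.000969), matrix and TGF-beta genes with no filter (0.058) and with a minimum of 50 (0.10), and, with the codon trend removed, mitochondrial ribosomal proteins (-0.0091) and NRF2 targets (-0.0038). Without 1 library at a time, medians ran from -0.0037 to 0.030 for mitochondrial ribosomal proteins, from -0.076 to 0.0015 for nonsense-mediated decay factors and from -0.044 to 0.027 for other CCCH genes, which were at 0.026 without the third library of both groups. Of lists with medians within that spread, with the codon trend removed large-subunit ribosomal proteins went to -0.011, small-subunit ones to -0.0065, angiomotins and Hippo-YAP to -0.0035, GIGYF and 4EHP repressors to -0.12, the microRNA pathway to 0.019, numbered zinc-finger genes to 0.0092 and mitochondrially encoded genes to 0.017. Without the shifted stretches interferon-stimulated genes went to 0.023, CCR4-NOT genes to 0.0066 and decapping genes to 0.00042.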

Other observations

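The series also holds 3 libraries of wild-type cells with a control hairpin and 3 labelled as ZC3H7A knockout with a hairpin against ZC3H7B. They were sequenced to 12.2 to 15.5 M reads by another library protocol, and they entered no test above. ZC3H7A RNA was not lower in the libraries labelled knockout, at 1639.9, 1561 and 1772 against 1585, 1529 and 1684. A check of RNA level cannot show whether the protein was lost. ZC3H7B was at 999.8, 1168 and 1083 against 5948, 6484 and 6958. Some genes that differed most between the paralogs were far apart there too. KRT19 was at 1130.1, 1304 and 1412 in the wild-type cells and at 0, 0 and 0 in the libraries labelled knockout. CDH3 was at 655, 712 and 619 in the wild-type cells and at 0, 2.37 and 0 in the libraries labelled knockout. SPARC was at 144, 168 and 137 in the wild-type cells and at 1057, 1054 and 956 in the libraries labelled knockout. FGF21 was at 15.5, 9.86 and 19.6 in the wild-type cells and at 15.1, 19.0 and 12.6 in the libraries labelled knockout, where the groups overlapped. Some genes nearly silent in the tag control were not so in the wild-type cells. THNSL2 was there at 82.2, 96.1 and 45.7, and HTRA3 at 79.9, 91.2 and 61.0. ZNF22 was at 122, 104 and 89.3, CYB561 at 138, 136 and 120, and ERVMER34-1 at 147, 190 and 150. In the libraries labelled knockout, THNSL2 was at 110, 102 and 96.9, and HTRA3 at 133, 180 and 198. In these libraries ZNF22 was at 1.89, 0 and 4.21, CYB561 at 0, 2.37 and 0, and ERVMER34-1 at 0, 0 and 0. ZNF22 and CYB561 were thus high with ZC3H7A and nearly absent in the libraries labelled knockout. IFI16, and CD7 at 0, 7.40 and 2.18, were low in the wild-type cells too. These genes were chosen after their values were seen, and no test was made.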
